A study of Homo sapiens with 6 samples.

Results

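Transcript levels of histone and DNA modifying enzymes were examined in PC3, a human prostate cancer line established from a bone metastasis, with short hairpin RNA (shRNA) against VprBP or with control shRNA. The enzymes were chosen by gene symbol. The set takes the numbered KDM, KMT, SETD, HDAC, SIRT, PRMT, KAT, NSD, EHMT, SUV39H, DNMT and TET genes together with DOT1L, CREBBP, EP300 and UHRF1, and it gave 82 of the 12227 listed genes. Of these, 80 were protein coding and 2, KMT5AP1 and KMT5AP2, were processed pseudogenes. The rule used names and no measured value. Of 88 enzymes with such names that were looked for, KAT2A, SIRT4, KDM5D, KDM4E, KDM8, PRMT8, DNMT3L and TET1 were not analysed here.

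The 3 libraries of the VprBP shRNA group have the genotype label VprBP knockdown, and the 3 libraries of the control shRNA group have the label WT. No further allele, agent or time is named. Samples are numbered sh1 to sh3 within a group, and what a number stands for (hairpin, culture or library) is not stated. All p-values below therefore reflect the spread among these 6 samples and could be technical in part. VprBP is the protein encoded by DCAF1. It is a substrate receptor of a cullin ubiquitin ligase and has also been described as a histone kinase.

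Enzymes of this kind add chemical groups to histone tails or to cytosine in DNA, or take them off. Acetyltransferases and deacetylases set lysine acetylation, which marks active chromatin. Lysine methyltransferases and demethylases act on single residues, so that methylation of H3K4 marks promoters and enhancers, methylation of H3K36 marks transcribed gene bodies, and methylation of H3K9 or H3K27 marks silenced chromatin. DNA methylation at CpG dinucleotides is copied after replication by DNMT1 with the help of UHRF1 and is oxidised by the TET enzymes. Several of these enzymes, among them the H3K4 methyltransferases KMT2C and KMT2D, are recurrently mutated in prostate and other cancers.

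Values are the authors' scaled signal per gene, which has no further unit and is called the scaled value in what follows. Folds are ratios of group means of scaled values. Log2 fold changes are VprBP shRNA minus control shRNA, computed from log2(value + 0.5), and are given with their standard error (SE). The added 0.5 shrinks the change of low genes. They were tested with limma over all 12227 genes. A gene was called at a Benjamini-Hochberg adjusted p under 0.05. "Rose", "fell", "higher" and "lower" as counts refer to called genes. In bulk RNA, fewer cells of a type and less RNA per cell cannot be told apart.

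DCAF1, the targeted gene, had scaled values of 38.5, 41.1 and 40.2 in VprBP shRNA libraries, against 79.4, 78.5 and 78.7 in control shRNA libraries. All 3 VprBP shRNA values lay far below the controls, and 50.6% of the control mean remained. This was a log2 difference of -0.97 with an SE of 0.05 (limma adjusted p = 3.56e-11). An exact permutation test over the 20 assignments of libraries gave a two-sided p of 0.1, the smallest that 3 against 3 allows. Estimated depth was 23029476 to 39633893 reads per VprBP shRNA library and 22981891 to 32293192 per control shRNA library. Libraries of a group differed by a median of 4.41% to 6.54% per gene, and libraries of different groups by 14.9% to 16.8%. VprBP shRNA replicate 3 lay farthest from its own group. Of 5 luminal prostate markers, 3 were not analysed here, KLK2 and KLK3 among them. The others moved apart, as 1 rose and 1 fell (log2 fold change 1.01 and -0.67). Of 5 epithelial markers KRT8, KRT18 and EPCAM rose, CDH1 fell and KRT19 was not called. Their means were 619, 693, 279, 323 and 829 in VprBP shRNA cells, against 378, 455, 251, 342 and 825 in control shRNA cells, in that order of genes. Of markers of other cell types, none of 5 for leukocytes, COL1A1 alone of 5 for fibroblasts and PECAM1 alone of 4 for endothelium were among the genes analysed, and PECAM1 averaged 23.3 in VprBP shRNA cells and 54.2 in control shRNA cells.

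Over the whole set, decreases outnumbered increases. Of the 82 genes, 45 (54.9%) were called, 15 higher and 30 lower, and 37 were not called. Among all listed genes the called share was 60.9%, with 33.0% higher and 27.8% lower. In the set, 18.3% were higher, below that background, and 36.6% were lower, above it, while the share called over both directions together was no larger than among all genes. The same backgrounds apply to the counts of every group that follows. The median log2 fold change was -0.05 over the 82 genes and 0.02 over all listed genes. The changes were mostly small. Among called genes the median absolute log2 fold change was 0.29 for the set and 0.33 for all genes, 24 genes of the set were called with a fold of at least 1.2 (29.3%, against a background of 39.3%), and 7 with a fold of at least 1.5 (8.54%, against 12.3%). The 3 values of one group lay entirely above or below those of the other for 46 genes of the set, 16 higher and 30 lower in VprBP shRNA cells, against backgrounds of 64.8% in either direction, 35.1% higher and 29.6% lower.

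**Figure D1:**
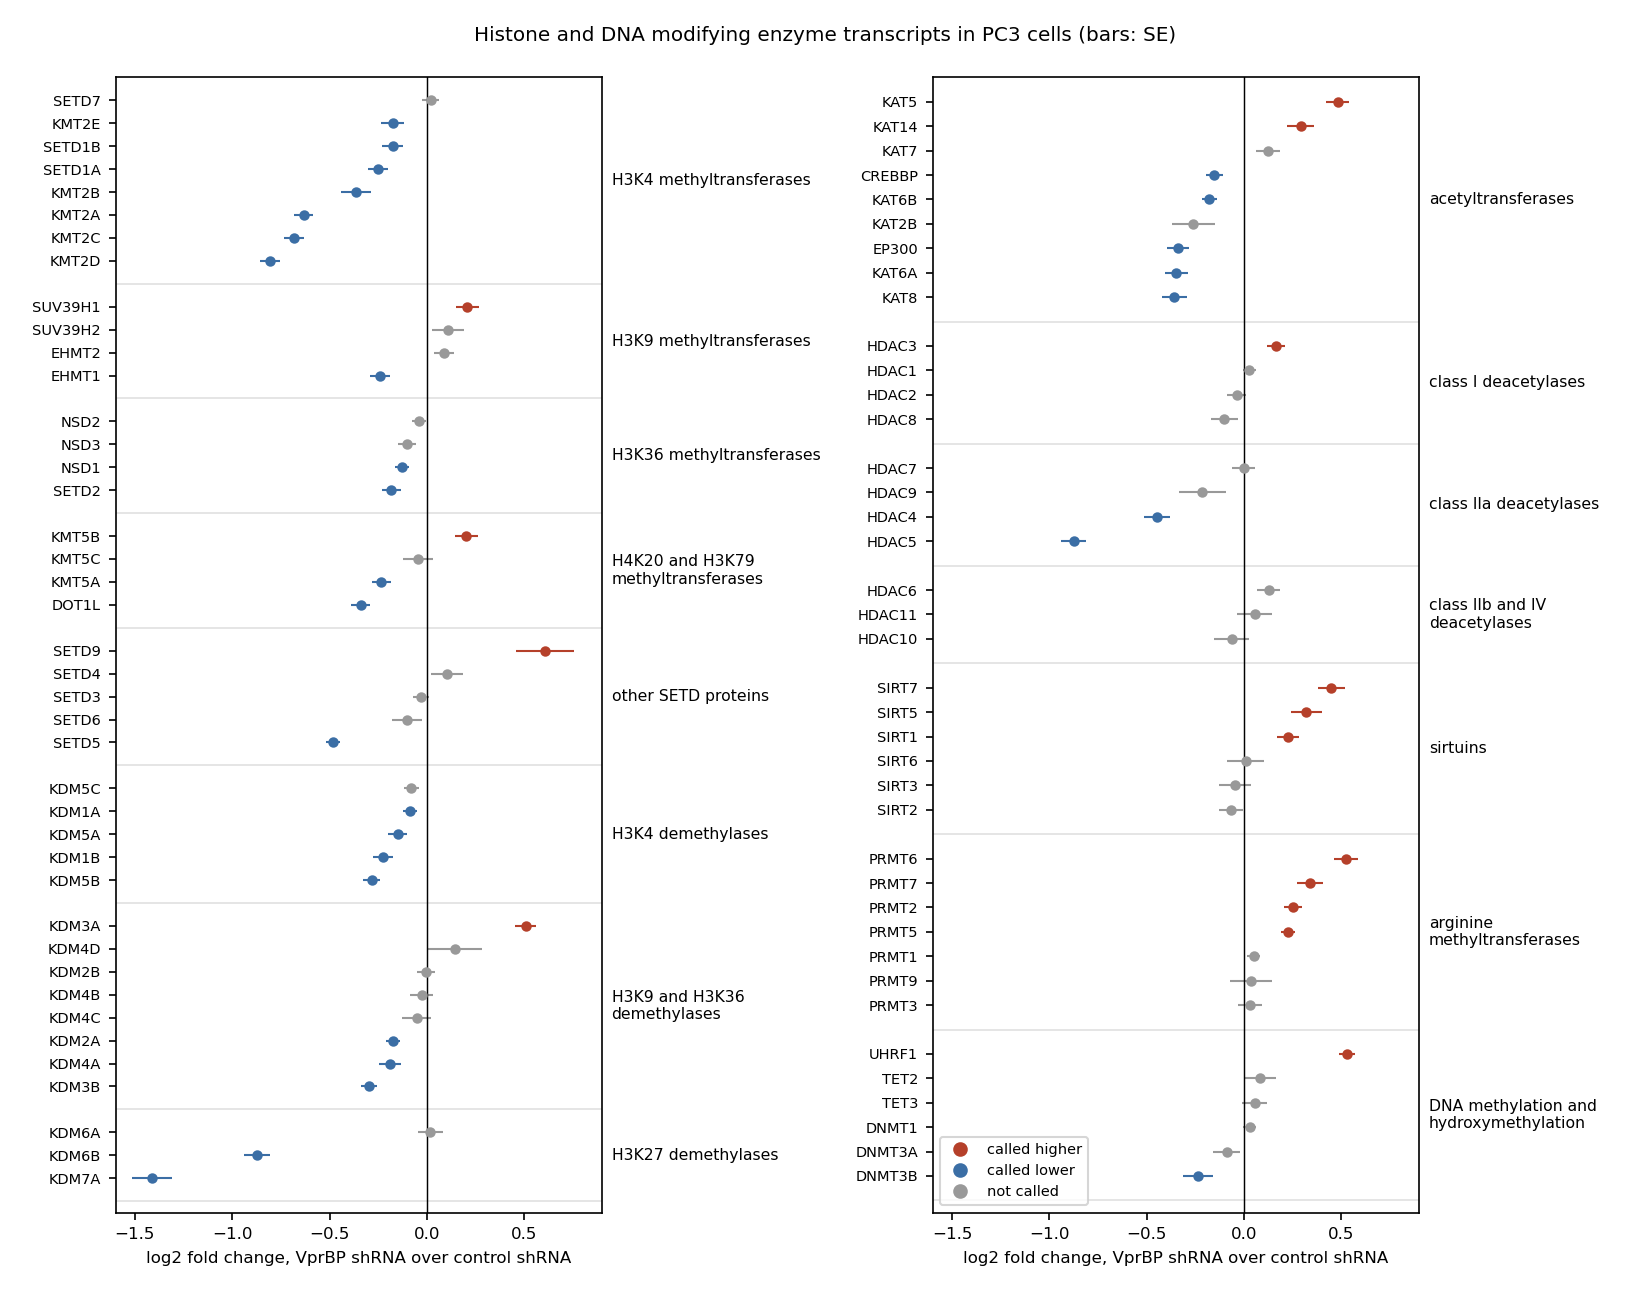
Log2 fold change (VprBP shRNA minus control shRNA, log2(value + 0.5) scale) of each of the 80 protein-coding enzymes, arranged by role, with bars for the standard error from limma. Called increases, called decreases and genes that were not called are distinguished by colour. The H3K4 methyltransferases lie mostly left of 0, the arginine methyltransferases lie right of 0, and KDM7A, at -1.41, lies farthest left.

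Of the 8 listed lysine methyltransferases of H3K4, 7 fell, none rose and SETD7 was not called. KMT2A, KMT2C and KMT2D fell most. KMT2A (MLL1) and KMT2B are the large trithorax-type enzymes of promoters and CpG islands, whereas KMT2C and KMT2D place H3K4 monomethylation at enhancers. In VprBP shRNA cells all of their means were below control, by 1.28-fold for KMT2B to 1.75-fold for KMT2D. Because KMT2A, KMT2C and KMT2D fell together, the promoters of these genes are shown here from RefSeq (GRCh38.p14), as 300 bases from 250 before to 50 after the annotated start, written 5′ to 3′ on the gene's strand. Capitals mark matches on either strand to the GC box (GGGCGG), the CCAAT box (CCAAT), the E-box (CACGTG) and an E2F-type motif (TTTCCCGC), and matches may overlap. KMT2A is at chr11:118436242-118436541 on the plus strand, KMT2C at chr7:152435954-152436253 on the minus strand and KMT2D at chr12:49060745-49061044 on the minus strand.
KMT2A promoter: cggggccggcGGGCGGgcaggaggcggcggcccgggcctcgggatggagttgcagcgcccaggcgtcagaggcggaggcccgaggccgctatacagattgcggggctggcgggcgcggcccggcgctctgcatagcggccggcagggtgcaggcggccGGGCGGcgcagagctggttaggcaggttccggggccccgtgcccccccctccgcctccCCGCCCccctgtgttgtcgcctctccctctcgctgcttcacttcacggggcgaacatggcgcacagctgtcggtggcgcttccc
KMT2C promoter: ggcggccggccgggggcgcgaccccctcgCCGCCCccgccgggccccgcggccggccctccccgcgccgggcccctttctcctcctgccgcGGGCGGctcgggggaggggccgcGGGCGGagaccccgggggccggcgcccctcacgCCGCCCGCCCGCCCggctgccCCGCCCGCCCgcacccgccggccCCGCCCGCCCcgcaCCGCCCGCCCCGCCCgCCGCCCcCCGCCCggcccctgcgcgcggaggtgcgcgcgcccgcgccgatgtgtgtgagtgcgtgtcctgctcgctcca
KMT2D promoter: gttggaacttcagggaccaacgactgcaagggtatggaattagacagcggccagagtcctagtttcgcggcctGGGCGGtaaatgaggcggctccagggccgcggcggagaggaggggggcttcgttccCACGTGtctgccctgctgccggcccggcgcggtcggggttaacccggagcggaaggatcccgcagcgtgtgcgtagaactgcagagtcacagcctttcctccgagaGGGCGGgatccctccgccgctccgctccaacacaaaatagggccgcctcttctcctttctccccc
The letters GGGCGG occurred 3 times in the KMT2A window, 15 times in that of KMT2C and 2 times in that of KMT2D, and the KMT2D window also held 1 E-box. GC content was 76.3%, 88.7% and 65.0% in that order. A GC box is common in such windows. It was found in 71.9% of the 9422 listed-gene promoters and in 45.0% of all 35116 promoters in the RefSeq table.

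KMT2D had scaled values of 68, 76.0 and 66.7 in VprBP shRNA libraries, against 125, 119 and 125 in control shRNA libraries. The groups were widely separated and the fold was 1.75 lower (log2 fold change -0.81, SE 0.05, limma adjusted p = 7.86e-10). KMT2C had 40.9, 46.0 and 43.5 in VprBP shRNA libraries, against 68.3, 70.7 and 71.3 in control shRNA libraries. All VprBP shRNA values of KMT2C were lower than every control value, at a fold of 1.61 (log2 fold change -0.68, SE 0.05, limma adjusted p = 1.08e-08). KMT2C is partly duplicated elsewhere in the genome, so reads from that part may have been split between copies.

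KMT2A had 84.9, 98.0 and 90.5 in VprBP shRNA libraries, against 141, 141 and 142 in control shRNA libraries. The control values were nearly identical and the VprBP shRNA values were spread below them, 1.55-fold lower on average (log2 fold change -0.63, SE 0.05, limma adjusted p = 8.36e-09). KMT2B had 41.6, 45.3 and 34.2 in VprBP shRNA libraries, against 53.4, 50.4 and 51.6 in control shRNA libraries. Replicate 3 was the lowest of the VprBP shRNA libraries for KMT2B, and the difference was 1.28-fold (log2 fold change -0.36, SE 0.08, limma adjusted p = 0.000695).

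The remaining H3K4 enzymes fell by less. SETD1A and SETD1B, which deposit most H3K4 trimethylation at active promoters, were 1.19-fold and 1.13-fold lower in VprBP shRNA cells (limma adjusted p = 0.000601 and 0.0105). KMT2E, a relative whose own methyltransferase activity is not established, was 1.13-fold lower (limma adjusted p = 0.0161), and its libraries overlapped between the groups. SETD7, a monomethyltransferase with many non-histone substrates, had means of 159 ± 7.79 in VprBP shRNA cells and 157 ± 6.11 in control shRNA cells (SD, n = 3 each), with a 95% confidence interval of the log2 fold change from -0.07 to 0.11. Summed over the 8 genes, scaled values were 509, 558 and 526 in VprBP shRNA libraries, against 681, 692 and 695 in control shRNA libraries. These sums did not overlap.

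Of 12 further subunits of the H3K4 methyltransferase complexes, 3 rose, 5 fell and 4 were not called. The called share of 66.7% was near the 60.9% of all genes. NCOA6, HCFC1 and PAXIP1 fell 1.33-fold, 1.28-fold and 1.28-fold, whereas PAGR1, DPY30 and ASH2L rose 1.37-fold, 1.21-fold and 1.18-fold. PAXIP1 and PAGR1, partners within the KMT2C and KMT2D complexes, therefore moved in opposite directions. The shared core subunit WDR5 was not called.

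Among the set's methyltransferases for H3K9, H3K36, H3K79 and H4K20, DOT1L changed most, at 1.27-fold. Of the 4 H3K9 enzymes, EHMT1 fell 1.18-fold and SUV39H1 rose 1.16-fold (limma adjusted p = 0.00065 and 0.00641), and EHMT2 and SUV39H2 were not called. Of the 4 H3K36 enzymes, SETD2, which trimethylates H3K36 behind elongating polymerase, and NSD1 fell 1.13-fold and 1.09-fold, and NSD2 and NSD3 were not called. DOT1L, the H3K79 methyltransferase, had 53.7, 57.5 and 56.2 in VprBP shRNA libraries, against 68.9, 70.0 and 73.4 in control shRNA libraries. The groups did not overlap and the difference was 1.27-fold (log2 fold change -0.34, SE 0.05, limma adjusted p = 1.28e-05).

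Of the H4K20 enzymes, KMT5A fell 1.18-fold, KMT5B rose 1.15-fold and KMT5C was not called. Reads of KMT5A and of the pseudogenes KMT5AP1 and KMT5AP2 cannot be assigned with certainty, and neither pseudogene was called. The same limit may hold for HDAC1, PRMT1, PRMT5 and SETD6, for which pseudogenes are annotated too. Of the 5 remaining SETD genes, SETD5 fell, SETD9 rose, and SETD3, SETD4 and SETD6 were not called. SETD5, a SET-domain protein whose enzyme activity is debated, had 143, 148 and 146 in VprBP shRNA libraries, against 199, 201 and 211 in control shRNA libraries. Its VprBP shRNA values were tightly grouped below the controls (1.40-fold, log2 fold change -0.48, SE 0.04, limma adjusted p = 1.07e-08).

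SETD9 had 4.43, 5.00 and 4.83 in VprBP shRNA libraries, against 3.07, 3.19 and 2.59 in control shRNA libraries. This low transcript was 1.61-fold higher without overlap between the groups (log2 fold change 0.61, SE 0.15, limma adjusted p = 0.00206). Taking all 20 lysine methyltransferases outside the SETD group just described, 2 rose, 12 fell and 6 were not called.

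**Figure D2:**
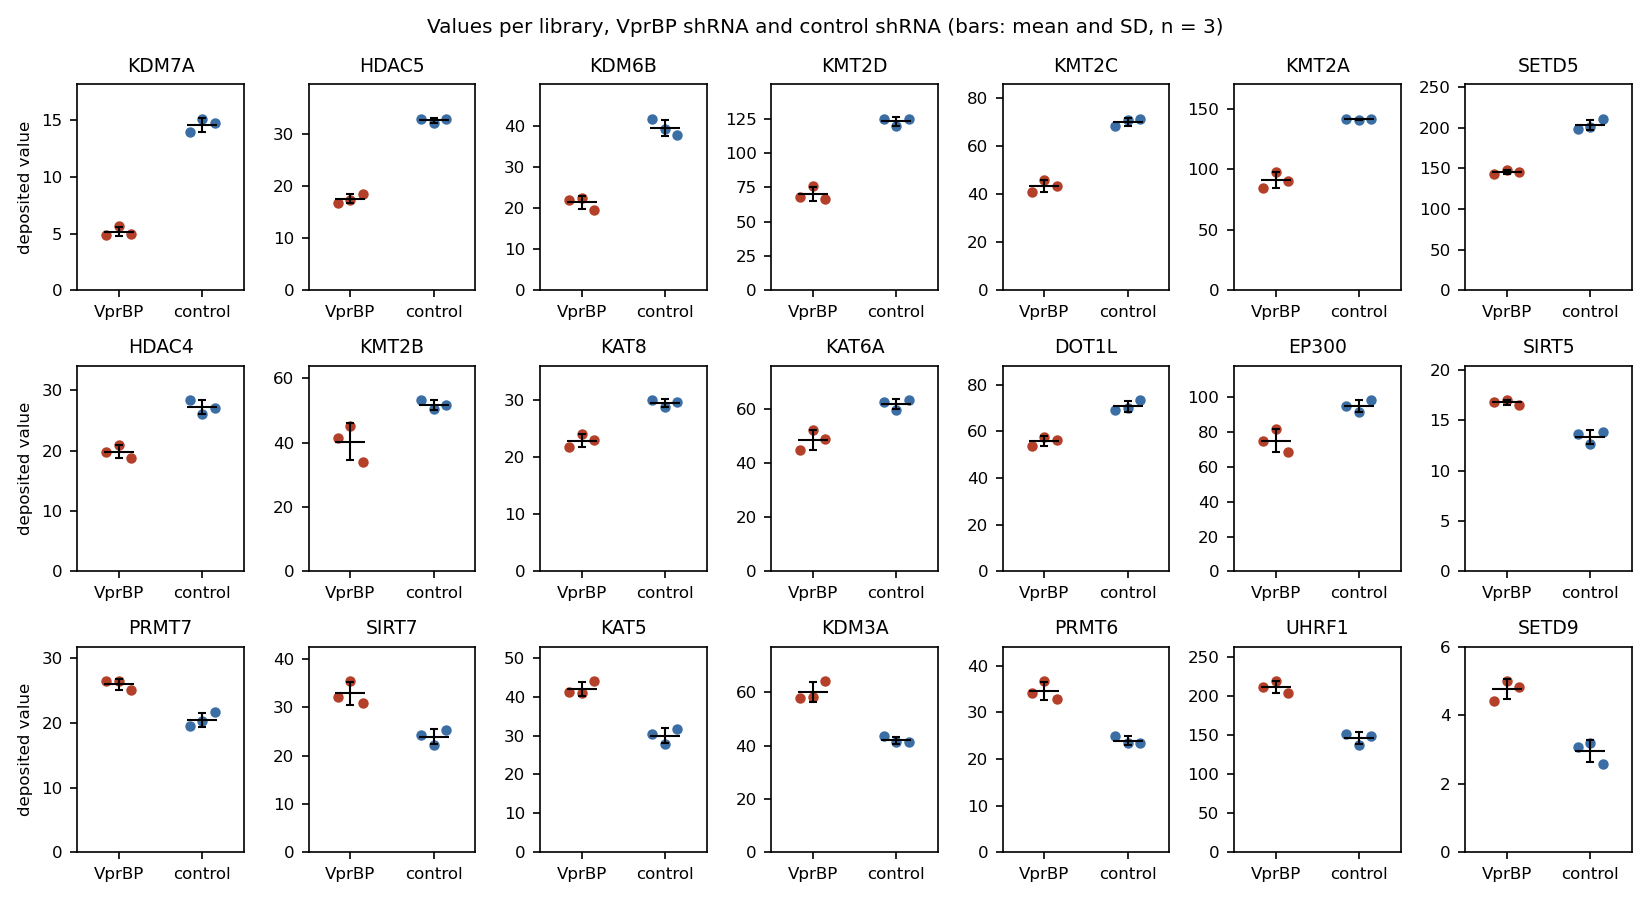
Scaled values in each library of the 21 enzymes that were called and whose group means stood in a ratio of at least 5 to 4 in either direction, 1 panel a gene on a linear axis that starts at 0. Points are libraries, VprBP shRNA on the left in red and control shRNA on the right in blue, with the mean and SD (n = 3). In every panel the groups do not overlap, and the KDM7A means of 5.17 in VprBP shRNA cells and 14.6 in control shRNA cells stand farthest apart in ratio.

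The demethylases also fell more often than they rose. Of 16 listed, 1 rose, 9 fell and 6 were not called. KDM7A changed most of the whole set, and of the 3 enzymes that act on H3K27 KDM6B fell as well. KDM7A, which removes methyl groups from dimethylated H3K9 and H3K27, had 4.86, 5.64 and 5.01 in VprBP shRNA libraries, against 13.9, 15.1 and 14.7 in control shRNA libraries. The gap between the groups was far wider than the spread within either, and KDM7A was 2.82-fold lower (log2 fold change -1.41, SE 0.10, limma adjusted p = 5.24e-09). Its promoter, shown because KDM7A changed most, is at chr7:140176934-140177233 on the minus strand and held 1 GC box, in capitals.
KDM7A promoter: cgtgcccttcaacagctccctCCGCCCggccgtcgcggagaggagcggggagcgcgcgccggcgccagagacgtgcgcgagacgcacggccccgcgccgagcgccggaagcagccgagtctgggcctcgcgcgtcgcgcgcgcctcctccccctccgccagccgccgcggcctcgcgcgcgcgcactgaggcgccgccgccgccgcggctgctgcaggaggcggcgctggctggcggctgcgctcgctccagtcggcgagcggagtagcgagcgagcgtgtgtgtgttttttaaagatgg

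KDM6B, the inducible demethylase of trimethylated H3K27, had 22.0, 22.5 and 19.6 in VprBP shRNA libraries, against 41.6, 39.1 and 37.8 in control shRNA libraries. All VprBP shRNA values were well under the lowest control, at a fold of 1.85 (log2 fold change -0.87, SE 0.07, limma adjusted p = 1.33e-08). KDM6A, the X-linked enzyme with the same substrate, was not called. Its means were 27 ± 0.964 in VprBP shRNA cells and 26.7 ± 1.30 in control shRNA cells (SD, n = 3 each), with a log2 interval from -0.12 to 0.15.

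Among the 8 enzymes for H3K9 and H3K36, 1 rose, 3 fell and 4 were not called. KDM3A, an H3K9 demethylase known to be induced by hypoxia, was the one that rose. It had 57.7, 58.4 and 64.3 in VprBP shRNA libraries, against 43.6, 41.3 and 41.3 in control shRNA libraries. The groups were separate and KDM3A was 1.43-fold higher (log2 fold change 0.51, SE 0.05, limma adjusted p = 6.13e-07). Its relative KDM3B moved the other way, 1.23-fold lower (limma adjusted p = 8.45e-06), and KDM4A and KDM2A fell 1.14-fold and 1.13-fold.

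Of the 5 H3K4 demethylases, 4 fell and KDM5C was not called. KDM5B and KDM1B fell 1.22-fold and 1.17-fold, and KDM5A fell 1.11-fold. KDM1A (LSD1), the flavin-dependent enzyme of the CoREST complex, was 1.06-fold lower (limma adjusted p = 0.0401), with means of 226 ± 5.85 in VprBP shRNA cells and 240 ± 5.23 in control shRNA cells (SD, n = 3 each). Enzymes that add and enzymes that remove H3K4 methylation were thus both among the genes that fell.

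Among deacetylases the zinc-dependent family was mostly not called, and both decreases were in class IIa. Of 11 HDAC genes, 1 rose, 2 fell and 8 were not called. HDAC5 and HDAC4 are class IIa proteins that shuttle between nucleus and cytoplasm and bind MEF2 factors. HDAC5 had 16.8, 17.4 and 18.6 in VprBP shRNA libraries, against 33.0, 32.2 and 32.9 in control shRNA libraries. The separation was wide and HDAC5 was 1.86-fold lower (log2 fold change -0.87, SE 0.06, limma adjusted p = 7.95e-09).

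HDAC4 had 19.8, 20.9 and 18.8 in VprBP shRNA libraries, against 28.4, 26.1 and 27 in control shRNA libraries. It was 1.37-fold lower without overlap (log2 fold change -0.45, SE 0.07, limma adjusted p = 3.16e-05). HDAC7 and HDAC9 of the same class were not called, and the HDAC7 interval ran from -0.12 to 0.12 on the log2 scale. Of the class I enzymes, HDAC3, the catalytic subunit of the NCoR and SMRT complexes, rose 1.12-fold (limma adjusted p = 0.00626). HDAC1, HDAC2 and HDAC8 were not called, and HDAC1 had means of 229 ± 4.74 in VprBP shRNA cells and 225 ± 3.86 in control shRNA cells (SD, n = 3 each). HDAC6, HDAC10 and HDAC11 were not called.

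The sirtuins are NAD-dependent deacylases. Of 6 listed, 3 rose, none fell and 3 (SIRT2, SIRT3 and SIRT6) were not called. SIRT7, a nucleolar enzyme, had 32.2, 35.4 and 30.9 in VprBP shRNA libraries, against 24.3, 22.1 and 25.3 in control shRNA libraries. The groups were separate, at 1.37-fold (log2 fold change 0.45, SE 0.07, limma adjusted p = 4.07e-05). SIRT5, a mitochondrial desuccinylase, had 16.8, 17.0 and 16.6 in VprBP shRNA libraries, against 13.6, 12.6 and 13.8 in control shRNA libraries. Its VprBP shRNA values were close together above the controls (1.26-fold, log2 fold change 0.32, SE 0.08, limma adjusted p = 0.002). SIRT1, the nuclear founding member, rose 1.17-fold (limma adjusted p = 0.00226).

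Acetyltransferases moved in both directions. Of 9 listed, 2 rose, 5 fell and 2 were not called. EP300, a coactivator that acetylates H3K27 at enhancers, had 75.1, 81.7 and 68.8 in VprBP shRNA libraries, against 95.2, 91.4 and 98.7 in control shRNA libraries. EP300 was 1.26-fold lower with separate groups (log2 fold change -0.34, SE 0.06, limma adjusted p = 6.47e-05), and its paralog CREBBP was 1.11-fold lower (limma adjusted p = 0.00772). KAT6A, of the MYST family, had 44.8, 52.3 and 48.9 in VprBP shRNA libraries, against 62.5, 59.8 and 63.5 in control shRNA libraries. The KAT6A difference was 1.27-fold (log2 fold change -0.35, SE 0.06, limma adjusted p = 6.47e-05), and its paralog KAT6B fell 1.13-fold.

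KAT8, the H4K16 acetyltransferase, had 21.8, 24.0 and 23.1 in VprBP shRNA libraries, against 30.1, 28.8 and 29.6 in control shRNA libraries. It was 1.29-fold lower without overlap (log2 fold change -0.36, SE 0.06, limma adjusted p = 0.00014). KAT5 (TIP60), the catalytic subunit of the NuA4 complex, went the other way, with 41.1, 40.8 and 44.0 in VprBP shRNA libraries, against 30.3, 27.9 and 31.7 in control shRNA libraries. KAT5 was 1.40-fold higher (log2 fold change 0.48, SE 0.06, limma adjusted p = 4.65e-06), and KAT14, of the ATAC complex, was 1.23-fold higher (limma adjusted p = 0.00177). KAT2B and KAT7 were not called.

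Of 32 listed subunits of acetyltransferase complexes, 12 rose (37.5%), 8 fell (25%) and 12 were not called, shares near the 33.0% and 27.8% of all genes. Within the NuA4 complex, EP400 and TRRAP, its large ATPase and scaffold subunits, fell 1.41-fold and 1.40-fold, while ING3, EPC1 and DMAP1 rose 1.83-fold, 1.42-fold and 1.38-fold beside KAT5. Of 27 deacetylase complex subunits, 6 rose (22.2%), 10 fell (37.0%) and 11 were not called. BRMS1 rose 1.52-fold and TBL1X fell 1.54-fold, the largest changes in each direction on that list.

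Arginine methyltransferases rose or were not called. Of 7 listed, 4 rose, none fell and 3 (PRMT1, PRMT3 and PRMT9) were not called. PRMT6, which methylates H3R2 and thereby opposes H3K4 methylation, had 34.2, 36.8 and 32.9 in VprBP shRNA libraries, against 25, 23.3 and 23.4 in control shRNA libraries. The groups were well apart, at 1.45-fold (log2 fold change 0.52, SE 0.06, limma adjusted p = 2.59e-06). PRMT7, a monomethyltransferase, had 26.5, 26.4 and 25 in VprBP shRNA libraries, against 19.5, 20.2 and 21.6 in control shRNA libraries. It was 1.27-fold higher (log2 fold change 0.34, SE 0.07, limma adjusted p = 0.000385).

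PRMT2 and PRMT5 rose 1.19-fold and 1.17-fold (limma adjusted p = 0.000183 and 5.32e-05). PRMT5 is the main enzyme for symmetric dimethylation of arginine. PRMT1, the main enzyme for asymmetric dimethylation, had means of 484 ± 11.1 in VprBP shRNA cells and 467 ± 9.76 in control shRNA cells (SD, n = 3 each), with a log2 interval from -0.02 to 0.12. CARM1, another arginine methyltransferase that the naming rule does not take, fell (log2 fold change -0.24, limma adjusted p = 0.000334).

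In the DNA methylation group, UHRF1 rose, DNMT3B fell, and DNMT1, DNMT3A, TET2 and TET3 were not called. UHRF1, which recognises hemimethylated CpG sites and brings DNMT1 to them, had 211, 220 and 204 in VprBP shRNA libraries, against 152, 138 and 149 in control shRNA libraries. The groups were far apart, at 1.45-fold (log2 fold change 0.53, SE 0.04, limma adjusted p = 2.07e-08). DNMT1 had 343 ± 7.29 in VprBP shRNA cells and 336 ± 8.55 in control shRNA cells (SD, n = 3 each), and its log2 interval of -0.04 to 0.10 does not reach the change of UHRF1. DNMT3B, a de novo methyltransferase, was 1.19-fold lower (limma adjusted p = 0.014). The UHRF1 promoter is printed because UHRF1 was the gene of this group that rose. The first window listed for each gene was taken, and that of UHRF1 lies inside the gene's listed span, which begins at 4903080. Windows at any other starts are not shown. It is at chr19:4909251-4909550 on the plus strand and held 1 CCAAT box, 2 GC boxes and 1 match to TTTCCCGC, in capitals as before.
UHRF1 promoter: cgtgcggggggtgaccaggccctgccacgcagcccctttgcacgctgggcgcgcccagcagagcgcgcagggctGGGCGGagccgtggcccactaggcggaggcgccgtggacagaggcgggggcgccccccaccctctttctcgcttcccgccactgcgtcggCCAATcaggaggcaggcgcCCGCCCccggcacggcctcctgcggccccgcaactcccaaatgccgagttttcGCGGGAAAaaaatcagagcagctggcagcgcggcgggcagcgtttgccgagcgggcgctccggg

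UHRF1 is a gene of S phase in many cells, and most proliferation markers were higher here as well. Of 12 such markers, 11 rose, none fell and MKI67 was not called (log2 fold change -0.08, limma adjusted p = 0.0852). That none fell depended on the setting. With median-ratio or library-size scaling 9 rose and 1, MKI67, fell (log2 fold change -0.10 in both, limma adjusted p = 0.026 and 0.028). MKI67 was also called lower when VprBP shRNA replicate 2 or 3 or control shRNA replicate 2 was left out. With the centring by transcript length described below, MKI67 was called higher instead (log2 fold change 0.09, limma adjusted p = 0.0219). CDK1, CCNA2 and PCNA rose most, 1.43-fold, 1.31-fold and 1.28-fold, and the smallest called rise was 1.06-fold, for MCM7. Only 4 of the 12 were called higher with a fold of at least 1.2. Tested against a fold of 1.5, 0 were called. The summed scaled value of the 12 was 2692 to 2781 in VprBP shRNA libraries, against 2373 to 2419 in control shRNA libraries. Their part in the UHRF1 result was not tested.

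Promoter sequence of the set was otherwise plain. RefSeq windows were matched for 73 of the 82 genes. GGGCGG was present in 10 of 14 promoters of genes that rose, 20 of 25 of genes that fell and 21 of 34 of genes that were not called. CCAAT was present in 24 of the 73, or 4, 5 and 15 in the same order, against 37.2% of listed-gene promoters. TATAAA was found in none of the 73, against 5.20% of listed-gene promoters. CACGTG was present in 12 of the 73 and TTTCCCGC in 4, against 10.2% and 2.77% of listed-gene promoters. These are descriptions of letters in the windows, searched on both strands.

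Levels between genes were compared per length, as scaled value per kilobase of transcript. The length was that of a single annotated transcript of each gene. Which transcripts PC3 expresses was not determined, so rankings between genes are approximate. PRMT1 was the most abundant, at 347 in VprBP shRNA cells and 335 in control shRNA cells, followed by HDAC1 at 108 in VprBP shRNA cells and 106 in control shRNA cells. DNMT1 had 63.4 in VprBP shRNA cells and 62.1 in control shRNA cells, and UHRF1 had 65.6 in VprBP shRNA cells and 45.4 in control shRNA cells, so that UHRF1 was below DNMT1 per kilobase in control shRNA cells and about level with it in VprBP shRNA cells. DNMT3B, DNMT3A, TET3 and TET2 were much lower, at 4.41, 2.32, 2.07 and 1.68 in VprBP shRNA cells, against 5.23, 2.47, 1.99 and 1.58 in control shRNA cells. KDM7A was the lowest, at 0.557 in VprBP shRNA cells and 1.57 in control shRNA cells.

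**Figure D3:**
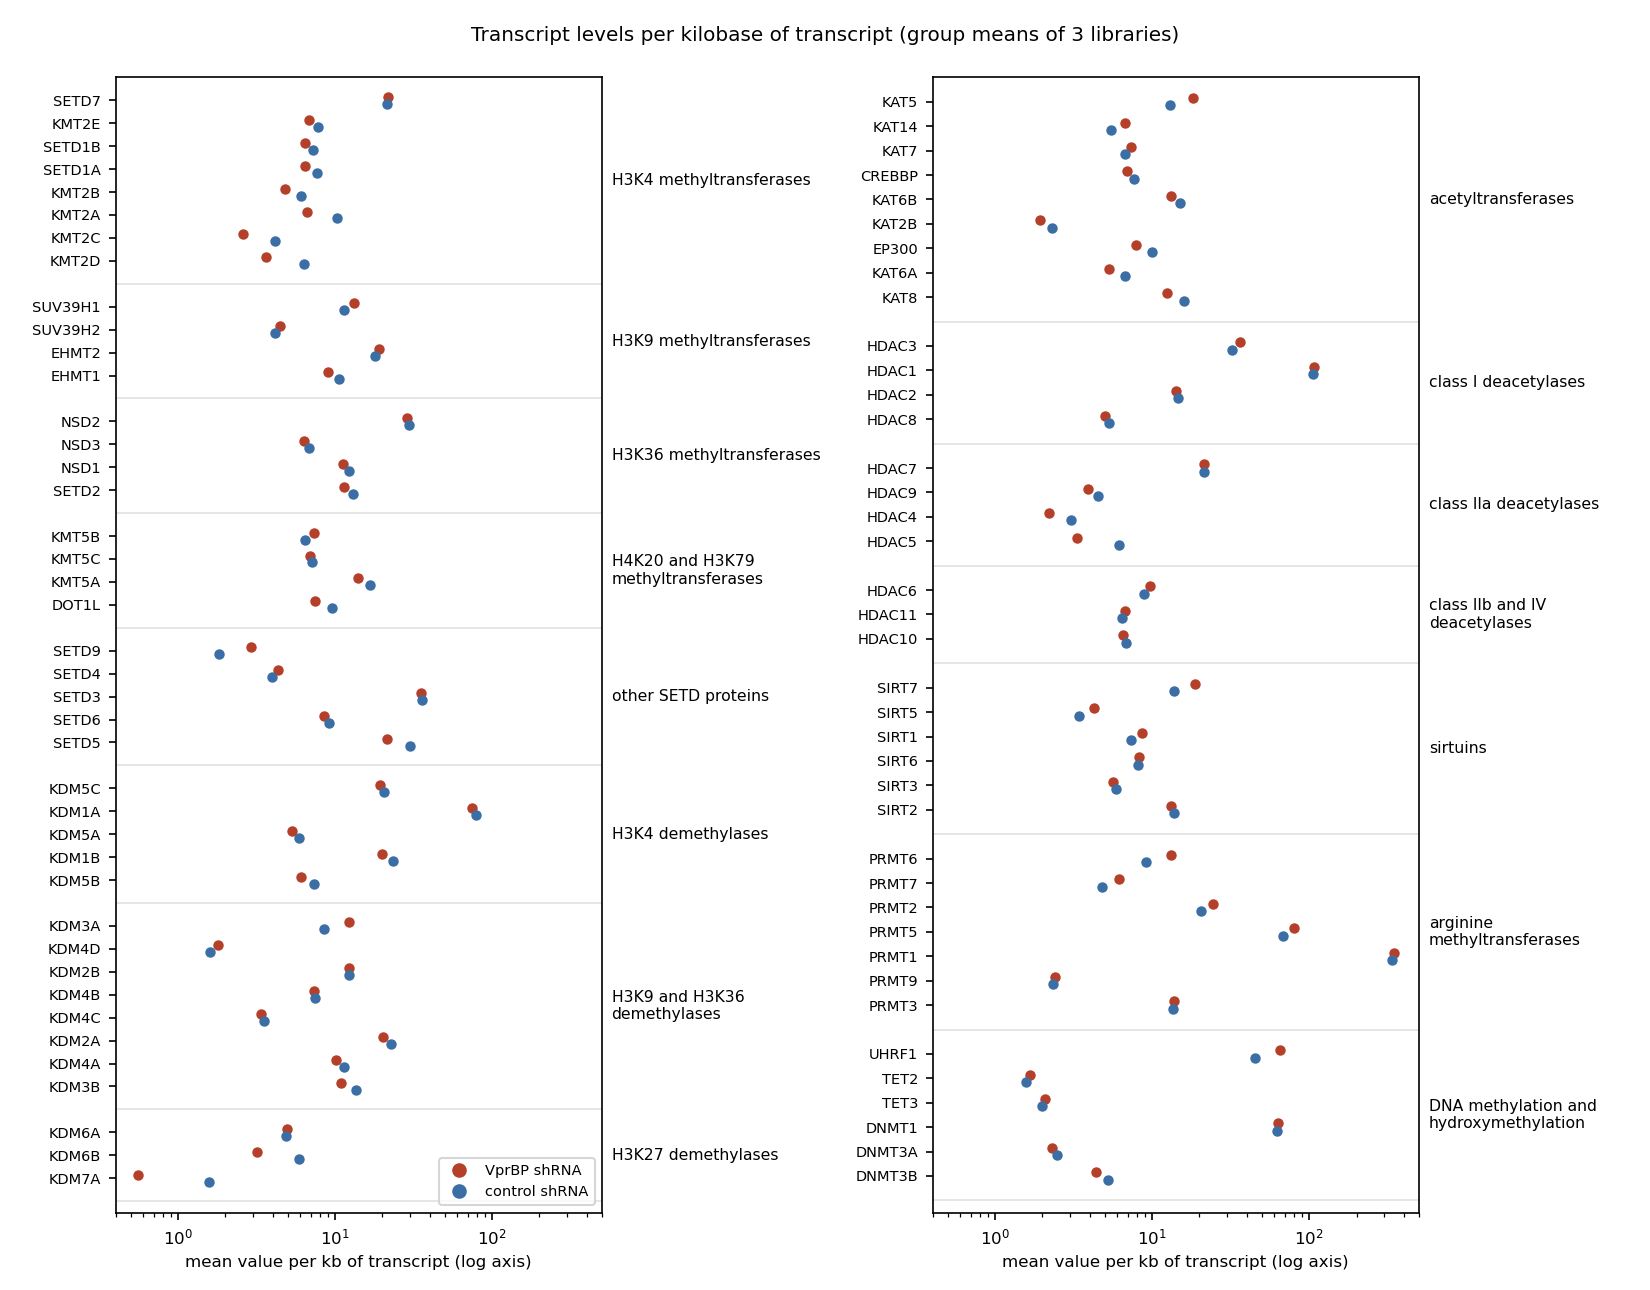
Mean scaled value per kilobase of transcript of the enzymes in VprBP shRNA cells and control shRNA cells, on a log axis, by role, as points for the means of 3 libraries. Values run from 0.557 for KDM7A in VprBP shRNA cells to 347 for PRMT1 in VprBP shRNA cells, and the 2 groups lie close together for most genes.

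Transcript length moved with the direction of change. The median transcript length was 2880 bases for the 15 genes that rose, 7201.5 for the 30 that fell and 4095 for the 37 that were not called, against 3098.5 over all genes with a length. Spearman's rho between length and log2 fold change was -0.49 over the 82 genes and -0.18 over 12012 listed genes, as a description across genes that share the same libraries. Of the 30 enzymes with transcripts of 6000 bases or more, 21 fell and none rose. Of all 1906 listed genes of that length, 891 (46.7%) fell and 426 (22.4%) rose. Among all genes the median log2 fold change declined over the same length classes, with 0.08 under 2000 bases and -0.18 at 10000 bases or more. In the longest class the median deviation of the libraries was -0.13, -0.08 and -0.07 in VprBP shRNA replicates 1 to 3, against 0.09, 0.10 and 0.11 in control shRNA replicates 1 to 3.

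**Figure D4:**
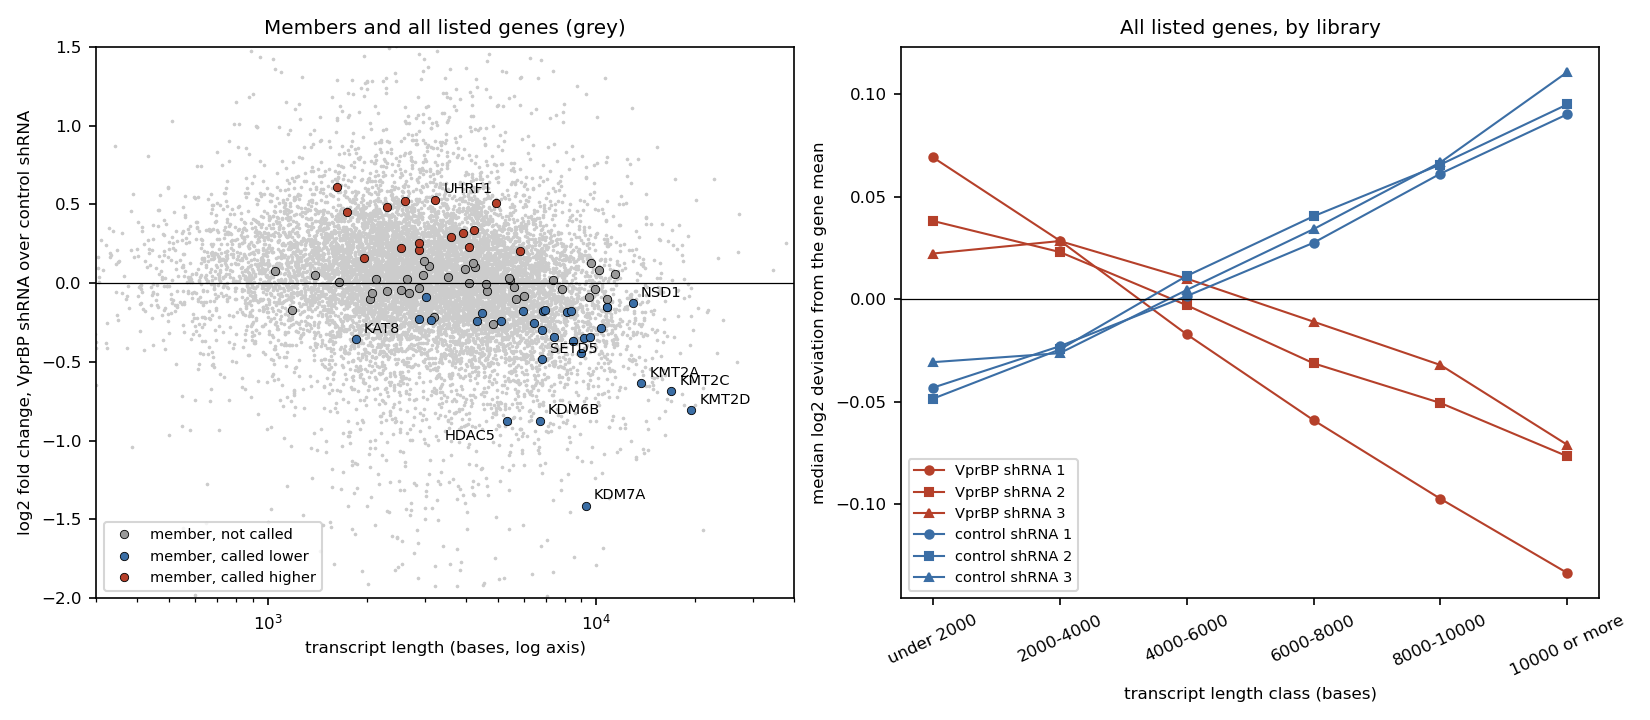
Left, log2 fold change (VprBP shRNA minus control shRNA) against transcript length in bases (log axis), with the enzymes coloured by call and other listed genes as small grey points, of which those beyond the axis limits are not drawn. Right, each library's median log2 deviation from the gene mean over all listed genes, by length class. At 10000 bases or more the VprBP shRNA libraries lie between -0.13 and -0.07 and the control shRNA libraries between 0.09 and 0.11.

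When log2 values were centred within 20 classes of transcript length, the 21 enzymes described library by library all stayed called in the same direction. KDM7A then had a log2 fold change of -1.25, KMT2D -0.64, KMT2C -0.52 and KMT2A -0.47, and UHRF1 0.48. Over the set, 19 were called higher and 24 lower. Among all listed genes, 3670 were called higher and 3637 lower in this setting. The share of the set that was lower was then close to that of all genes and no longer above it. The share that was higher stayed below that of all genes. The calls of SETD2, KAT6B, SETD1B, KMT2E, CREBBP, KDM5A, NSD1 and HDAC3 were lost. HDAC2, SETD7, TET3, TET2 and KAT7 were then called higher and SETD6 lower. After centring, 5 of the 8 H3K4 methyltransferases remained lower and 1 was higher, and of the H3K36 enzymes none was lower. This centring was chosen after the values were seen.

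Genes that overlap others on hg38 are uncertain, since the sources used here do not give the strand setting of the counting. DCAF1 is among them, as RBM15B lies opposite it. So are KMT2E and KDM5A, opposite SRPK2 and CCDC77, and KAT14, which overlaps PET117 on the same strand. Some enzymes that were not called also overlap listed genes, such as DNMT1 with S1PR2. Values of neighbours are given only for the enzymes described library by library. RNASEH2C, opposite KAT5, rose as well (log2 fold change 0.35), and of the genes opposite DOT1L, AP3D1 fell (log2 fold change -0.17) and PLEKHJ1 was not called (log2 fold change 0.10, limma adjusted p = 0.167). DDN-AS1, opposite KMT2D, fell with it (log2 fold change -1.04) at means of 2.92 in VprBP shRNA cells and 6.40 in control shRNA cells. THUMPD3-AS1, opposite SETD5, rose (log2 fold change 0.63) while SETD5 fell, and MAFG, which overlaps SIRT7 on the same strand, fell (log2 fold change -0.33) while SIRT7 rose. G6PC3, opposite HDAC5, and MIER3, opposite SETD9, were not called. On hg38, KDM7A (ENSG00000006459.11) spans 140084746 to 140176983 of chromosome 7, KDM6B (ENSG00000132510.11) spans 7834217 to 7854796 of chromosome 17 and HDAC5 (ENSG00000108840.17) spans 44076746 to 44123702 of chromosome 17. KMT2D (ENSG00000167548.18) spans 49018975 to 49060794 of chromosome 12, and UHRF1 (ENSG00000276043.5) spans 4903080 to 4962154 of chromosome 19.

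Of 25 other modifying enzymes outside the naming rule, 8 rose, 8 fell and 9 were not called. The share of 32% in each direction was near the 33.0% higher and 27.8% lower among all genes. PADI2, which converts histone arginine to citrulline, fell 2.56-fold to 4.90 ± 0.237 in VprBP shRNA cells, against 12.6 ± 0.976 in control shRNA cells (SD, n = 3 each, limma adjusted p = 3.31e-08). SMYD2, a lysine methyltransferase, rose 1.68-fold (limma adjusted p = 3.1e-09). The paralogs that methylate H3K27 moved apart, with EZH2 1.24-fold higher and EZH1 1.41-fold lower, and ASH1L, an H3K36 methyltransferase, was 1.41-fold lower.

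Of 24 proteins that read histone or DNA marks, 6 rose (25%), 12 fell (50%) and 6 were not called. CDYL2, L3MBTL3 and BRD3 fell 1.78-fold, 1.67-fold and 1.55-fold, and ZBTB38, TDG and MBD4, which bind methylated DNA or repair mismatches at CpG sites, rose 1.52-fold, 1.36-fold and 1.27-fold. Of 14 enzymes that supply or clear the cofactors of these reactions, 2 rose (14.3%), 7 fell (50%) and 5 were not called. NAMPT, which feeds the NAD pool that sirtuins consume, fell 1.45-fold, and ACSS2, which makes acetyl-CoA from acetate, fell 1.26-fold, while ACLY, which makes it from citrate, rose 1.18-fold.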

How the data were processed

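A SMARTer mRNA kit was used on total RNA, per the labels' protocols. The deposited signal values are named raw counts by the authors, but they are a scaled signal: their 75th percentile lay between 78.99 and 79.02 in every library and only 55.0% to 64.7% were whole multiples of the library's step, within 0.02 reads. The step, the value of 1 read, was 0.0254 to 0.0439. Depth was estimated as the sum divided by that step. Partek and hg38 are named per the submitters' processing notes; the aligner, annotation and scaling method were not given in the sources used here. No count test was used as the main test, as these are not whole reads. The limma-voom alternative was run on estimated reads, the values divided by the step.

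The limma trend test (version 3.58.1, R 4.3.3) was run on log2(value + 0.5) over all 12227 genes and 6 libraries. p-values were two-sided and adjusted by the Benjamini-Hochberg method. The best library of each listed gene held at least 150 estimated reads, and no further filter was applied. Transcript lengths came from GENCODE 29 for 12012 genes (98.24%), and promoters from the RefSeq GRCh38.p14 table. Gene ends were reduced by 1, after which 6958 equalled GENCODE, against 153 before. The test was tried on simulated data. Members and gene lists were chosen with earlier results of these data known. Enzymes given library by library were called, had a mean of at least 1, and had means in a ratio of at least 5 to 4 in either direction. From each other list, at most 3 called genes per direction, those that changed most, were named, and genes beyond this rule (KDM6A, WDR5, CARM1, overlapping genes and enzymes not called) were named after their values were seen. Some genes that the rule takes are not reported here. Alternatives were other scalings, pseudocounts of 0.1 and 1, a mean of at least 5, limma-voom, a replicate block, a fold minimum of 1.2, a test against a fold of 1.5, each library left out, and length centring.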

Additional observations from a re-analysis of the deposited data

How the results depend on the processing

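Counts of called genes changed by more than 1.5 times under the fold-based alternatives. Tested against a fold of 1.5 with limma's treat, 651 of all genes were called (296 higher, 355 lower), 0 of the enzymes higher and 4 lower (KDM7A, HDAC5, KDM6B and KMT2D; 0 higher and 5 lower at an unadjusted p under 0.05), so 4 over the role groups and 2 over the other chromatin lists. With a call and a fold of at least 1.2, these were 4809 of all genes (2558 higher, 2251 lower), 9 enzymes higher and 15 lower, 24 over the role groups and 60 over the other lists. The remaining alternatives left these counts within 1.5 times. Leaving out each library gave 15 to 16 enzymes higher, 28 to 34 lower and 43 to 50 over the role groups. The median log2 fold change over the set was -0.06 to -0.04. Without overlap were 48 to 55 enzymes. Non-overlap is easier to reach with fewer libraries, and its share over all genes is not given here for these settings. Of all genes, 6697 to 7405 were called (3643 to 4017 higher, 3054 to 3388 lower), with 92 to 101 over the other lists. The DCAF1 log2 fold change was -0.99 to -0.95. Without VprBP shRNA replicate 3, HDAC9, KAT2B, NSD3 and HDAC2 were also lower and EHMT2 higher. For the 21 enzymes given by library, 318 of 335 results kept their call and direction. SETD9 had no result in the setting with a mean of at least 5, as its mean was lower. The call was lost in 17, all against the fold of 1.5, and 0 reversed. These enzymes were chosen from the main fit as called at a ratio of at least 5 to 4. The 21 results with the fold minimum of 1.2, counted in the 318, were therefore fixed in advance. The median over all genes was 0.02, against -0.001 with median-ratio scaling. Replicate numbers showed no sign of pairing: same-numbered deviations correlated at 0.0258, -0.178 and -0.168. With 3 libraries a group and the numbers not explained, these correlations cannot settle whether libraries were paired. With the replicate block, 15 enzymes were higher and 29 lower, and KDM1A lost its call. Of the 12 proliferation markers, 11 were higher and 0 lower, against 9 and 1 with either other scaling and with limma-voom. The count of these markers also moved under the fold-based alternatives. It was 4 higher and 0 lower with a fold of at least 1.2, and 0 in either direction against a fold of 1.5. Leaving out VprBP shRNA replicate 2 or 3, or control shRNA replicate 2, gave 10 and 1. Overlap was not recomputed for the pseudocount, voom, block, fold test and length settings. Depth limits the least abundant enzymes, such as SETD9 and KDM7A, most.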
